A study of Mus musculus with 4 samples.

Results

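J-RGCs are a type of retinal ganglion cell (RGC), the neurons that carry the output of the retina to the brain. They take their name from junctional adhesion molecule B, the product of the Jam2 gene, which marks them. In the mouse they are known for dendrites that point to one side of the cell body and for responses to dark stimuli moving in a preferred direction. Like other RGC types, they tile the retina as a mosaic, in which cells of one type tend to keep apart from each other.

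The cells described here were all those whose deposited type label was 05_J-RGC, which came to 4610 of the 131379 RGCs in the table and 1 of 45 types. They came from whole retinas of wild-type C57BL/6 mice with no treatment, cut en face (along the plane of the retina) into sections of 20 µm and imaged with Xenium. This assay reads a chosen set of genes, here 300, in place, and each transcript it finds appears as a punctum assigned to a cell. The design asks how RGC types are distributed over the retina. All retinas formed 1 group, and neither the age of the mice nor whether the 5 retinas came from separate animals is stated, so p-values measure the spread between these retinas. No cell of the table had a name that it shared with another cell.

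J-RGCs numbered 1199, 1477, 479, 937 and 518 in retinas 1 to 5. They made up 3.53% ± 0.12 (SD, n = 5 retinas) of RGCs, the eighth largest share, and were present in 39 of 41 sections. The share lay between 3.38% in retina 4 and 3.65% in retina 3, so the retinas held J-RGCs in nearly equal proportion. A J-RGC held a median of 330, 289, 296, 291 and 319 puncta in the 5 retinas, over all genes together. Most genes were thus seen as 0 or a few puncta in any one cell, and levels below are means over cells.

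A small set of the cells stood apart from their label. In 49 of the 4610 J-RGCs (1.06%, Wilson 95% interval 0.805 to 1.40%, counting error only) at least 20% of all puncta came from 13 genes of rod and cone photoreceptors, a list and a limit chosen after the data were seen. These cells gave 45.6% of their puncta to the list in the median, with a range of 22.7 to 62.4%, against 0.562% in the other J-RGCs. Only 7 lay between 20 and 40% and 9 J-RGCs lay between 10 and 20%, so few cells were near the limit. They numbered 0, 18, 6, 5 and 20 in retinas 1 to 5, and a single section of retina 5 held 17 of them among its 152 J-RGCs. Over all types 201 cells passed the limit, of which J-RGCs held 24.4%, and 15_Novel had a like share of such cells (1.11%).

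The defining RGC genes were nearly absent from these 49 cells. Rbpms, an RNA-binding protein found in all RGCs, had 0.184 puncta per cell against 7.45 in the other 4561 J-RGCs. Slc17a6, the vesicular glutamate transporter of RGCs, had 0.306 against 14.2. As many as 32 of the 49 had no punctum of either gene, as did 3 of the other J-RGCs. A cone opsin punctum (Opn1sw or Opn1mw) was found in 45 of the 49, but both genes are on the list that chose these cells. Jam2 stood at 4.37 puncta per cell in the 49, between the 8.45 of the other J-RGCs and the 1.24 of the 152 photoreceptor-rich cells of other types. Slc17a7, another vesicular glutamate transporter, reached 12.9 puncta per cell against 0.212. Their median volume was 1177 in the units of the file, against 566 in the other J-RGCs. How these cells came to carry the label was not tested, and the results that they move are given with and without them.

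**Figure D1:**
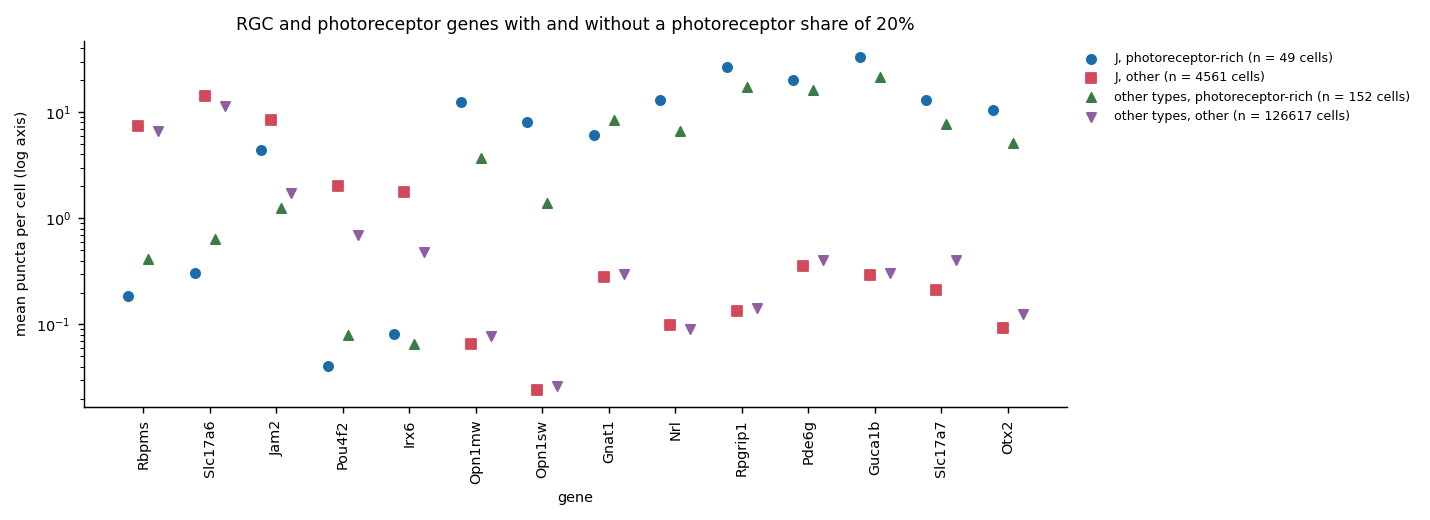
Mean puncta per cell (log axis) of RGC genes (Rbpms to Irx6) and of photoreceptor and related genes (Opn1mw to Otx2) in 4 sets of cells, split by whether 20% of a cell's puncta came from photoreceptor genes. Of the photoreceptor and related genes, only Slc17a7 and Otx2 had no part in that split. The 49 photoreceptor-rich J-RGCs lie with the photoreceptor-rich cells of other types for most genes, and below the other J-RGCs for Rbpms (0.184 against 7.45) and Slc17a6 (0.306 against 14.2).

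Jam2 marked the type strongly. It stood at 8.89, 8.46, 7.92, 8.09 and 8.14 puncta per cell in J-RGCs of retinas 1 to 5. Its mean of 8.30 ± 0.38 (SD, n = 5) was above that of each of the other types in every retina, which averaged 1.57. The next types were 09_Tbr1_Novel at 4.09 ± 0.44, 04_FminiOFF at 3.60 ± 0.20 and 28_FmidiOFF at 3.51 ± 0.47. In puncta per cell 09_Tbr1_Novel was above the latter types in every retina. The order of 04_FminiOFF and 28_FmidiOFF changed between retinas and is not fixed by the data. The lowest level was 0.392 in 37_Novel. In CPM, a gene's puncta per 1000000 puncta of the type, the log2 ratio of J-RGCs to the mean of the other types was 2.43 ± 0.07, and 2.45 without the photoreceptor-rich cells.

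Single J-RGCs varied in Jam2 from 0 to 40 puncta, with a median of 8 and 10th and 90th percentiles of 2 and 15. No Jam2 punctum was seen in 98 of the 4610 (2.13%). After each cell was thinned to 100 puncta, to compare types at one depth, Jam2 was detected in 90.3% ± 1.0 of J-RGCs, in 70.8% of 09_Tbr1_Novel and in 12.6% of 37_Novel (unthinned, 97.7% of J-RGCs). Of the other J-RGC markers, Cdh8, a classical cadherin, was lower in J-RGCs than the mean of the other types (log2 ratio -0.50 ± 0.08) at 0.402 puncta per cell. Tbr1 and Sorcs3 are not on the panel.

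**Figure D2:**
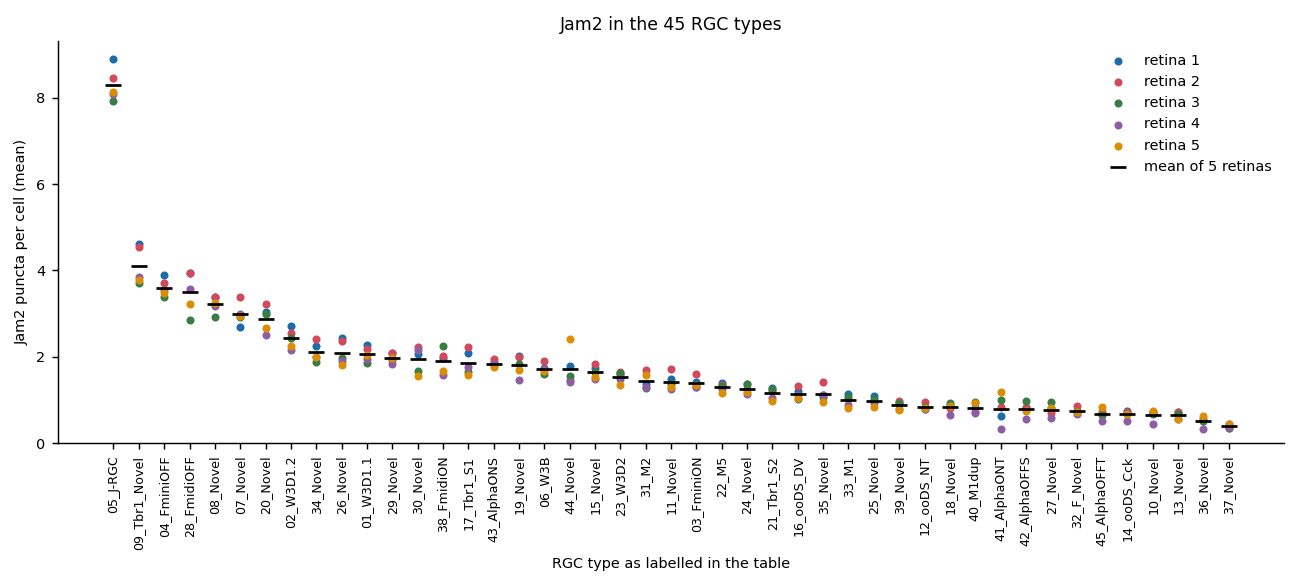
Mean Jam2 puncta per cell in each of the 45 types, with 1 point per retina and a bar at the mean of the 5 retinas. J-RGCs sit between 7.92 and 8.89, and no other type reaches 5 in any retina.

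The gene profile describes the type and carries no test, since the labels of the cells may rest on the same genes. Ratios are log2 ratios of CPM between J-RGCs and the mean of the other types, with nothing added, and their SD is over the 5 retinas. In every retina 71 of 300 genes (23.7%) were above the mean of the other types and 159 (53%) below it. The panel's median ratio was -0.28.

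After Jam2, the highest ratios belonged to Slitrk6, a transmembrane protein of the synapse-organizing Slitrk family (1.99 ± 0.12), Rprm, which encodes the cell-cycle regulator Reprimo (1.90 ± 0.10), and Irx6, an Iroquois transcription factor (1.88 ± 0.06). Irx6 stood at 1.96, 1.72, 1.73, 1.65 and 1.69 puncta per cell in the 5 retinas and, like Jam2, at the highest level of all types. Rprm stood at 1.91 puncta per cell and Slitrk6 at 0.523, and 04_FminiOFF and 45_AlphaOFFT respectively were the types highest in them. Neither gene was thus particular to J-RGCs, which ranked 7 of 45 for Rprm and 5 of 45 for Slitrk6.

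Atp2b4, a plasma-membrane calcium pump, followed at a ratio of 1.47 ± 0.08. Pou4f2, the transcription factor Brn3b of many RGCs, was at 1.41 ± 0.10, and Isl1, a LIM-homeodomain factor that acts with it in RGC development, at 1.15 ± 0.09. The sodium channel genes Scn9a and Scn7a had ratios of 1.39 ± 0.22 and 1.27 ± 0.11. Glra2, the alpha 2 subunit of the glycine receptor, was at 1.29 ± 0.09, with only 15_Novel higher. Ramp3, a partner protein of peptide-hormone receptors, and Nell1, a secreted protein, were at 1.20 ± 0.07 and 1.19 ± 0.07. On removal of the photoreceptor-rich cells each of these ratios moved by less than its SD.

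Another 4 of the 15 highest genes rested wholly or in part on the photoreceptor-rich cells. Prcd, Nrl and Gnb3 are on the list that chose those cells, so a fall on their removal follows in part from that choice. Tafa3 is not on it. The ratio of Prcd, a protein of photoreceptor discs, was 0.27, 1.18, 0.40, 1.18 and 3.20 in retinas 1 to 5, with retina 5 far above the rest. Without those cells its mean fell from 1.25 to 0.17 and it was above the other types in 3 of 5 retinas. The ratio of Nrl, the transcription factor that sets rod fate, went from 1.17 to 0.16. Gnb3, a G-protein beta subunit of cones and ON bipolar cells, went from 1.52 ± 0.53 to 1.15 ± 0.29, and Tafa3, which encodes a secreted chemokine-like protein, from 1.48 ± 0.42 to 1.21 ± 0.19. Both stayed higher in all 5 retinas.

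The lowest genes included 4 on the fixed lists of other RGC types (Opn4, Tbx20, Foxp2 and Penk). Opn4, the melanopsin of intrinsically photosensitive RGCs, had 127 puncta over all J-RGCs (0.0269 per cell, against 0.407) and a ratio of -3.90 ± 0.16. Penk, which encodes proenkephalin, was at -2.82 ± 0.10 and 0.225 puncta per cell against 1.66. The transcription factors Tbx20 (-2.71), Neurod2 (-2.58), Pou4f3 (-2.41), Foxp2 (-2.35), Ebf3 (-2.34) and Lmo2 (-2.29) were low as well, as were Coch (-2.40) and Col9a1 (-2.39), genes of extracellular proteins. Several of these genes are high in a few types only. Against the median of the other types, Opn4 stood at -0.07, Neurod2 at -0.19 and Tbx20 at 0.13, so J-RGCs resembled the usual RGC type for them. Ebf3 and Pou4f3 stayed low on that measure too, at -1.58 and -1.48.

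**Figure D3:**
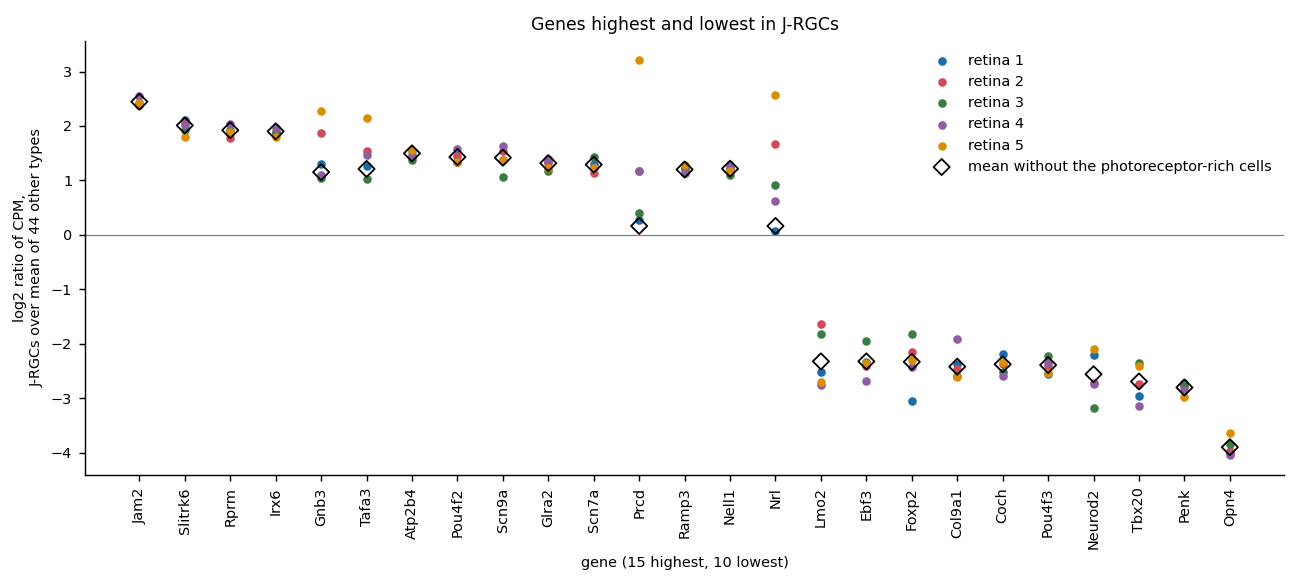
Log2 ratio of CPM in J-RGCs to the mean of the other types for the 15 highest and 10 lowest genes, 1 point per retina, with an open diamond at the mean without the photoreceptor-rich cells. Jam2 and Irx6 show little spread, whereas Prcd and Nrl fall to 0.17 and 0.16 at the diamond. Both of the latter are on the photoreceptor list that chose the removed cells.

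The gene families gave a mixed picture, read against 23.7% higher and 53% lower over the panel. Of 30 potassium channel genes 11 were higher and 14 lower in every retina, and the extremes were Kcnc4 (0.82) and Kcnd2 (0.79) at the high end and Kcnh1 (-1.37) and Kcnj3 (-1.73) at the low end. Sodium channel genes were higher in 5 of 9 and lower in 3, with Scn4b, a beta subunit, lowest (-1.82). Of 16 calcium channel genes 8 were higher and 3 lower, led by the auxiliary subunits Cacna2d2 (0.78) and Cacnb3 (0.41), with Cacna2d3 and the T-type channel Cacna1i lowest (-0.78 and -0.90).

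Of 15 GABA and glycine receptor genes 2 were higher and 10 lower. Glra2 contrasted with the GABA-A receptor subunit Gabrg3 (-2.22). Of 9 ionotropic glutamate receptor genes 3 were higher and 6 lower, with Grik5 (0.48) and Gria3 (-1.78) at the ends. Of 9 transporters Slc24a2, a sodium, calcium and potassium exchanger, was highest (1.13), followed by Slc17a6 (0.38). Of 5 cadherins and protocadherins Pcdh11x (0.96) and Pcdh8 (0.57) were higher, and the other 3 were lower, with Cdh5 at -1.73. Of 43 transcription factors 5 were higher and 28 lower, and of 8 neuropeptides none was higher and 5 were lower.

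Marker lists were read in the same way. The RGC list had 4 of its 6 panel genes higher in every retina and 2 lower (Pou4f3 and Nefh, a neurofilament gene). None of the 4 markers of intrinsically photosensitive RGCs was higher than the mean of the other types and 3 were lower. By the sum of these markers J-RGCs still ranked 18 of 45 types. All 4 alpha RGC genes, all 3 F-RGC genes and all 5 W3 genes were lower, with ranks of 43, 33 and 44 for their sums. Amacrine genes summed to 40451 CPM against 41127 in the other types, with 1 of 13 genes higher and 5 lower. Bipolar genes summed to 14886 against 8959, with 2 of 10 higher, 4 lower and a median ratio of -0.28. Isl1, which is on the RGC list too, gave 10580.5 of that sum against 4751 in the other types. The cone list put J-RGCs first of all types (1284 CPM against 372) and 33rd without the photoreceptor-rich cells (318). The rod list moved from rank 8 to rank 25. The panel genes of the cone and rod lists are on the list that chose the removed cells, so these moves follow in part from that choice.

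The types most like J-RGCs over the mean log2 levels of 300 genes were 09_Tbr1_Novel (r = 0.957) and 17_Tbr1_S1 (r = 0.936), a correlation across genes of 1 panel, which are not independent. Against 09_Tbr1_Novel, J-RGCs were higher in Scn7a, a sodium-channel-like protein (log2 ratio 4.01 ± 0.15, 2.61 against 0.159 puncta per cell), in the growth factor Igf1 (2.66 ± 0.21), in Ctxn3 (2.02) and in Kcnd2, a Kv4 potassium channel (1.90). Tafa3 (1.80, and 1.53 without the photoreceptor-rich cells) and Slc17a8 (1.63) followed. J-RGCs were lower in Cdh8 (-3.03 ± 0.11, 0.402 against 3.21 puncta per cell), the calcium-binding protein genes Calb1 (-2.37) and Necab1 (-1.88), the GABA-A subunit Gabrb1 (-2.09), the glutamate receptor Grm5 (-2.01) and Zcchc12 (-1.74). Cdh8 thus separated J-RGCs from their nearest type in the direction opposite to that of its place on the marker list.

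Against 17_Tbr1_S1, J-RGCs were again higher in Scn7a (2.87 ± 0.18) and Kcnd2 (2.27), and also in Scn9a (2.58), Cpne4 (2.23), Jam2 (2.15 ± 0.15) and Ramp3 (2.14). They were lower in the transcription factors Tfap2d (-3.74), Pou4f3 (-3.43), Meis2 (-2.45) and Onecut1 (-2.10), in the synaptic vesicle gene Sv2c (-3.30 ± 0.23, 0.864 against 8.32 puncta per cell) and in Kcnh1 (-2.26). Each of these 24 differences had 1 sign in all 5 retinas, which was a condition for naming the gene.

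Across the 45 types, the genes whose levels followed Jam2 most closely were Opn1sw (r = 0.65), Opn1mw (0.62), Prcd (0.62), Isl1 (0.59) and Pou4f2 (0.58). The cone opsins owed their place to J-RGCs and to the photoreceptor-rich cells in them, since r for Opn1sw was 0.0009 without J-RGCs and -0.007 without those cells. Prcd fell to 0.35 without J-RGCs, and to 0.31 and rank 35 without those cells. Both opsins and Prcd are on the list that chose those cells. Isl1 and Pou4f2 kept their values without the photoreceptor-rich cells (0.60 and 0.58) and then ranked first and second. The types share libraries and depth, so these values are descriptions.

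The spread of genes among J-RGCs was measured at equal depth. With each cell thinned to 100 puncta and the photoreceptor-rich cells left out, 147 genes had a mean of at least 0.1 punctum, and their variance divided by their mean had a median of 1.11. A value of 1 is what counting alone would give. Thinning and low means draw this measure towards 1, so values near 1 do not show that the cells were alike. Only 4 of these genes were above 1.5, namely Ptgds (2.96), a prostaglandin synthase, Spc25 (1.80), Spp1 (1.77), the alpha RGC marker osteopontin, and Gnat1 (1.63), the rod transducin. The medians for the same genes over the other types were 2.72, 1.81, 1.74 and 1.47, close to those in J-RGCs. Jam2 itself was at 1.22.

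J-RGCs were slightly smaller than the average RGC type. Their median volume was 573, 576, 632, 510 and 608 in the 5 retinas, in the units of the file, and ranked 29th of 45 types. Against the mean of the other types this was a log2 difference of -0.13 ± 0.01, lower in 5 of 5 retinas (exact two-sided sign-flip permutation test, p = 0.0625, the smallest that 5 retinas allow, so 0.05 cannot be reached; 0.232 adjusted over 13 such tests). Against 09_Tbr1_Novel and 17_Tbr1_S1 the differences were 0.04 ± 0.07 (exact permutation p = 0.125) and 0.02 ± 0.05 (exact permutation p = 0.5), within the spread between retinas. Puncta per cell differed from the mean of the other types by -0.04 ± 0.05 (exact permutation p = 0.125). Against all other RGCs pooled, the volume difference was -0.045, still lower in 5 of 5 retinas, and that in puncta per cell turned to 0.018.

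J-RGCs were scarce near each other in 4 of 5 retinas. Among the 10 nearest RGCs of a J-RGC in its section, J-RGCs made up 1.09, 1.72, 2.05, 1.12 and 3.61% in retinas 1 to 5. Around other RGCs the share was 3.54, 3.65, 3.73, 3.48 and 3.50%. J-RGCs were thus scarcer around each other than around other RGCs in retinas 1 to 4, while retina 5 showed no such gap. The log2 ratio was -1.05 ± 0.71 (exact permutation p = 0.125). Without the photoreceptor-rich cells it was -1.35 ± 0.35 and below 0 in all 5 retinas (exact permutation p = 0.0625).

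The gap was largest at short range, in distances of unstated unit in the section plane. Within 15 units of a J-RGC, 0.921% ± 0.481 of RGCs were J-RGCs, against 3.75% ± 0.12 around other RGCs. At 15 to 30 units the share was 1.36% ± 0.37, and at 30 to 45 units 2.65% ± 0.49. Without the photoreceptor-rich cells these shares were 0.879, 1.32 and 2.56%. In each of these 3 ranges the share around J-RGCs was below that around other RGCs in every retina, retina 5 included. From 60 units on the share around J-RGCs was 3.82%, no longer below the 3.59% around other RGCs. The median distance to the nearest J-RGC given in the table was 55.6 ± 2.9 units, against 78.1 in 09_Tbr1_Novel and 67.6 in 17_Tbr1_S1. Those types held fewer cells (2257 and 3115 against 4610 J-RGCs), and the distances were not adjusted for number.

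Scarcity of the own type nearby was not particular to J-RGCs. On the same measure 09_Tbr1_Novel stood at -2.31 ± 0.61 and 17_Tbr1_S1 at -1.46 ± 0.55, and 20 types had a lower value than J-RGCs or no neighbour of their own type in some retina. Neither of these similar types was scarce around J-RGCs, at log2 ratios of 0.07 ± 0.15 and 0.07 ± 0.08.

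**Figure D4:**
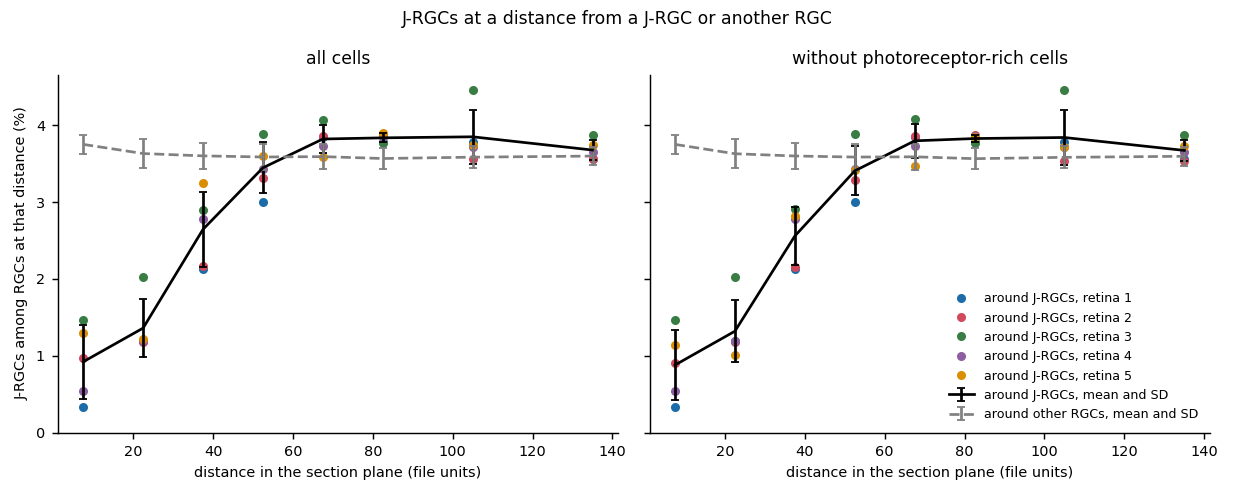
Share of J-RGCs among RGCs at a given distance from a J-RGC (points by retina, black mean and SD) or from any other RGC (grey dashed mean and SD), with all cells and without the photoreceptor-rich cells. The share around J-RGCs climbs from 0.921% within 15 units to 3.82% at 60 to 75 units, and the grey line stays close to 3.6%.

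J-RGCs took a larger share of RGCs in the central retina. Radius and axes are those of the positions that the authors scaled to a circle, and a scaled radius of 0.5 divided centre from periphery. The share was 3.69, 3.82, 3.88, 3.86 and 4.12% in the centre of retinas 1 to 5 and 3.33, 3.48, 3.40, 3.13 and 2.97% in the periphery, lower in each. The fitted log2 change was -0.23 ± 0.06 (SE; edgeR quasi-likelihood test, adjusted p = 0.0040). On this axis 19 of 45 types passed, 12 higher and 7 lower (15.6%) in the periphery. Without the photoreceptor-rich cells the changes were -0.23 on this axis, -0.26 along X and 0.16 along Y, with the same calls. Over 5 rings the share went from 4.18% ± 0.47 in the innermost to 2.54% ± 0.62 in the outermost.

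Along the X axis, for which the labels give no anatomical direction, J-RGCs were less frequent on the side above 0. The share was 3.74, 3.89, 4.20, 3.67 and 3.71% below 0 and 3.14, 3.37, 2.85, 3.11 and 3.49% above it. The log2 change was -0.26 ± 0.06 (edgeR quasi-likelihood test, adjusted p = 0.0176), lower in 5 of 5 retinas. On this axis 13 of 45 types passed, 8 higher and 5 lower (11.1%) on the side above 0. Only 1 type had a lower log2 change along X. Leaving out retina 1, 2 or 4 brought the adjusted p to 0.0690, 0.0518 and 0.0608 with the size kept at -0.26 to -0.28.

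Along the Y axis the share was 3.35% ± 0.32 below 0 and 3.75% ± 0.19 above, and the log2 change of 0.17 ± 0.08 did not pass (edgeR quasi-likelihood test, adjusted p = 0.151), nor did that of any type (0%). Retina 5 went the opposite way, from 3.85 to 3.45%, and without it the change was 0.25 (edgeR adjusted p = 0.0231). By sector of 45 degrees the share ran from 2.99% ± 0.03 at 315 to 360 degrees, where all 5 retinas agreed closely, to 4.26% ± 0.79 at 135 to 180 degrees.

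**Figure D5:**
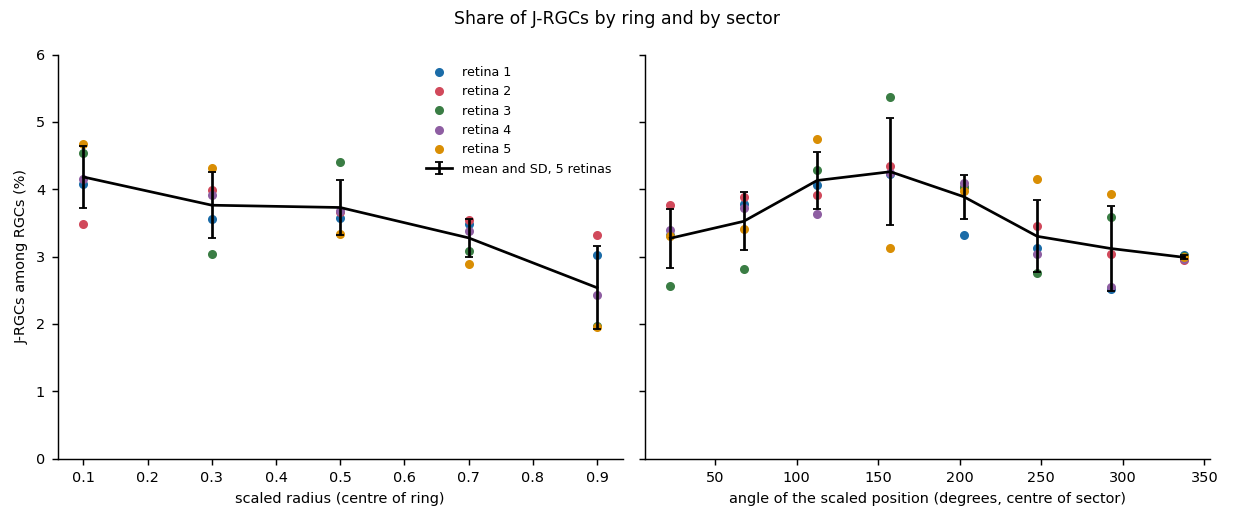
Share of J-RGCs among RGCs in 5 rings of scaled radius and in 8 sectors of the scaled position, 1 point per retina with the mean and SD of the 5 retinas. The share is highest in the innermost ring (4.18%) and lowest in the outermost (2.54%), and peaks in the sector at 135 to 180 degrees (4.26%).

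Within J-RGCs few genes changed with position. Between centre and periphery 2 of 285 genes passed the threshold, with the p-values adjusted over all pairs of type and gene, of which 2.23% passed (33 of the 285 had an unadjusted p under 0.05). Cacna1e, the R-type calcium channel, was at 666, 692, 778, 861 and 733 CPM in the centre of retinas 1 to 5 and at 1056, 1189, 1307, 1262 and 1367 in the periphery, with no overlap. Its log2 change was 0.71 ± 0.09 (SE; edgeR quasi-likelihood test, adjusted p = 0.0104). At about 0.3 punctum per cell it is a rare transcript in these cells, near the average of the other types.

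Pcdh8, a protocadherin, fell from 9770, 8857, 10047, 10157 and 7982 CPM in the centre to 8278, 7788, 8310, 7815 and 6634 in the periphery, lower in each retina, although the 2 ranges overlap. Its log2 change was -0.28 ± 0.04 (edgeR quasi-likelihood test, adjusted p = 0.0129). Neither gene passed without the retina block or without retina 2 or retina 4 (adjusted p between 0.0509 and 0.481). Of the 37 types fitted, J-RGCs were the 1 in which Cacna1e passed, and their change was the largest. The difference between its change in J-RGCs and in all other RGCs did not pass, at 0.58 (edgeR adjusted p = 0.111), and of 300 genes none did (0% called, 14 with an unadjusted p under 0.05, 1 in DESeq2). Pcdh8 passed as lower in the periphery in 7 of the 37 types, J-RGCs among them. Its change was above 0 in only 4 of the 37, with a median of -0.17. J-RGCs ranked 10 by its size.

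Without the photoreceptor-rich cells the share of all pairs that passed was not counted, and 2.23% is the share with all cells. In this setting 10 of 284 genes passed within J-RGCs, 6 higher and 4 lower in the periphery. Besides Cacna1e (0.67 ± 0.09, edgeR adjusted p = 0.0017) and Pcdh8 (-0.31 ± 0.04, edgeR adjusted p = 0.0025), these were Fxyd6, a regulator of the sodium pump (0.51), Vgf, a secreted neuropeptide precursor (0.30), Slc17a7 (0.66), and the photoreceptor genes Gnat1 (0.63) and Guca1b (0.42) on the higher side. The lower ones were Nefh (-0.24), Kcnn1, a calcium-activated potassium channel (-0.28), and Isl1 (-0.18). The photoreceptor genes among them passed in cells under the limit of 20%. Fxyd6 passed as higher in the periphery in 27 of the 37 types fitted with all cells, and its change was above 0 in all 37.

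Along X none of 290 genes passed within J-RGCs (edgeR; 11 at an unadjusted p under 0.05, none in DESeq2; 0.293% of all pairs passed), and along Y none of 286 did (edgeR; 30 at an unadjusted p under 0.05, none in DESeq2; 0% of all pairs). With the section in place of the retina as block 14 genes passed along Y, and without retina 5 there were 6, while along X 1 passed without retina 5 and 1, Scn7a, without the photoreceptor-rich cells. Sections of 1 retina are not independent, though that setting treats them as replicates. The share of all pairs that passed was not counted in these alternatives. The type's own marker did not pass either, Jam2 changing by -0.08 ± 0.04 in the periphery, 0.01 ± 0.03 along X and -0.08 ± 0.02 along Y (edgeR adjusted p = 0.356, 0.981 and 0.309).

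Along X, 2 of 300 genes (0.667%) changed differently in J-RGCs than in the other RGCs summed. Ctxn3, which encodes the membrane protein cortexin 3, changed by -0.11, -0.10, 0.14, -0.32 and -0.05 in J-RGCs of retinas 1 to 5 and by 0.19, 0.22, 0.27, 0.27 and 0.33 in the other RGCs, so that the values did not overlap. The difference was -0.39 ± 0.07 (edgeR quasi-likelihood test, adjusted p = 0.0214). Gprc5b, an orphan receptor, changed by 0.02, -0.13, -0.11, -0.04 and -0.02 in J-RGCs and by 0.18, 0.19, 0.15, 0.27 and 0.17 in the others, a difference of -0.27 ± 0.05 (edgeR adjusted p = 0.0214). In both genes the other RGCs were higher on the side above 0, and the part of the mix of types in this was not tested. Without retina 1, 2 or 4 neither gene passed, and along Y no gene did (0%; 20 at an unadjusted p under 0.05, 3 in DESeq2). J-RGC volume did not differ between periphery and centre beyond the spread (-0.06 ± 0.15, exact permutation p = 0.562).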

How the data were processed

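The deposited table held 300-gene puncta counts per cell, whole numbers with no normalization, with each cell's type, retina, slide, section, position, volume and nearest same-type cell, per the file headers. The sources used here do not say how cells were segmented or typed. The 4 deposited samples are slides of 1 group, and no label ties them to the table, so the retina was the replicate (n = 5). Members, gene lists and tests were chosen with earlier results of these data known. The families, the photoreceptor list and the distance ranges were chosen after the data were seen.

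Counts were summed per type, retina and side and fitted with edgeR 4.0.16 (quasi-likelihood, retina block, TMM, filterByExpr, at least 50 cells per sum) in R 4.3.3, with Benjamini-Hochberg adjustment and a threshold of 0.05. Shares were fitted with the same test and block on cell counts over 45 types, scaled by the cells per side. That fit used no TMM, filter or least number of cells. DESeq2 1.42.0 and limma 3.58.1 served as alternatives. The fits were tested on simulated data. Means, thinning to 100 puncta, neighbours and permutation tests used Python 3.11.15 with scipy 1.17.1. CPM values (a gene's puncta per 1000000) were computed from the counts, and profile ratios use them with nothing added. Only the correlations of J-RGCs with the other types took log2 of mean CPM plus 10.

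Genes named were the 15 highest and 10 lowest of one sign in every retina (at least 100 puncta in J-RGCs, or at least 0.1 puncta per cell elsewhere), 6 each way against each similar type, the 5 most like Jam2, up to 2 at each end of a family, and those past the threshold along an axis. Isl1, Fxyd6, Vgf and other genes named without the photoreceptor-rich cells or for their spread were chosen after their values were seen. A few genes that this rule or the comparison of cells would name are not reported here.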

Additional observations from a re-analysis of the deposited data

Results flagged for a closer look

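Of 46 sets of 5 retina values looked at for a lone retina far from the rest, 1 stood out, and chance alone gives about 1 in 20 such sets. The volume of J-RGCs over that of 09_Tbr1_Novel was 0.16 (log2) in retina 3 and between -0.01 and 0.03 in the other 4 retinas.

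A difference between J-RGCs and the other RGCs in the change along X was found for Ctxn3 (-0.39, edgeR adjusted p = 0.0214) and for Gprc5b (-0.27, edgeR adjusted p = 0.0214).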

How the results depend on the processing

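The share of J-RGCs kept its direction along all 3 axes under every alternative run. The exact sign-flip permutation test, which cannot pass with 5 retinas, gave -0.25 for the radial axis and -0.27 for X. Without 1 retina at a time the change ran from -0.28 to -0.21 along X and from 0.13 to 0.25 along Y. Genes passing within J-RGCs between centre and periphery, 2 of 285, numbered 4 in DESeq2, 4 with the radius split at 0.6, 9 with the section as block, 10 without the photoreceptor-rich cells, 0 without the retina block, and 0 to 5 without 1 retina. Along X, 1 passed without the photoreceptor-rich cells, and 0 to 1 without 1 retina. Along Y, 14 passed with the section as block, and 0 to 6 without 1 retina. Genes that differed from the other RGCs in their radial change numbered 1 in DESeq2 and 1 without the photoreceptor-rich cells (Cacna1e in both). Along X there was 1 with RLE scaling, and 0 to 2 without 1 retina, and along Y there were 3 in DESeq2. The counts with the section as block treat sections of 1 retina as replicates, which they are not. For these alternatives the share of all pairs that passed was not counted. Why these counts moved was not tested.

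Volume against the other types was -0.15 from means and -0.045 against all other RGCs pooled. Puncta per cell were -0.10 from means and turned to 0.018 against the pooled RGCs. The radial change in volume ran from -0.087 to 0.0013 without 1 retina, turning without retina 3. With 50 neighbours the spacing ratio was -0.23. Of the 25 profile genes Tbx20 changed sign, to 0.13, against the median of the other types. Medians near 300 puncta per cell over the panel limit single-cell statements to abundant genes.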
